A study of Mus musculus with 6 samples.

Results

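The genes described here are Fos, Fosb, Fosl1, Fosl2, Jun, Junb, Jund, Egr1, Myc and Maff, a set of inducible transcription factor genes taken by gene symbol from the deposited count tables. They are 10 of the 17680 genes listed there, and all 10 passed the filter on low counts that left 14219 genes for testing. RNA was sequenced from kidneys of wild-type C57BL/6 mice aged 6 to 8 weeks. A group of 3 mice received lipopolysaccharide (LPS), a component of the bacterial outer membrane, by intraperitoneal injection, and a Control group of 3 mice received phosphate-buffered saline by the same route. Kidneys were taken 24 h later, with 1 library per mouse and no gene deletion or transgene in either group, and the LPS dose is not given in the sources used here. The study set out to compare kidneys with septic injury after LPS with normal kidneys.

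AP-1 is a dimer of basic leucine zipper proteins. Jun proteins pair with each other or with Fos proteins, and the dimers bind the sequence TGANTCA or its relatives near target genes. Fos, Jun, Egr1 and Myc are textbook immediate early genes: they are transcribed from pre-existing signalling factors within minutes of a stimulus, and their mRNAs are usually short-lived. Egr1 is a zinc finger factor that binds GC-rich sites, Myc binds E boxes together with its partner Max, and Maff is a small MAF protein with a leucine zipper and no activation domain of its own. In kidney tubules these genes are known as part of the early response to injury.

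Promoters of some of the 10 genes are shown, among them Fosb, which did not pass the test described below. The other 9 genes were higher in LPS kidneys. RefSeq sequences of mouse assembly GRCm38.p6 were taken by symbol for 7 of the 10 genes (Fos, Fosb, Fosl2, Jun, Junb, Jund and Maff), with 9 start sites. The search for these genes did not cover every chromosome, and promoters of Egr1, Fosl1 and Myc were not part of it. The 150 bases before 6 of these start sites are printed 5′ to 3′ on the gene's strand, and each of the 6 held a match marked as below. The windows of Fosl2, Jund and the first Maff start are not printed. Capitals mark TGACGTCA, the site of the CREB and ATF proteins, its core TGACG, the variant TGACATCA, or GCGNGGGCG, the site of Egr proteins, each searched on both strands.
Fos (chr12:85473740-85473889, plus strand): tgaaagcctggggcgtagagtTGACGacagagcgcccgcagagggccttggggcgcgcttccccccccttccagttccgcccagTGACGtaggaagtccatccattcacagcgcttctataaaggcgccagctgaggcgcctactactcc
Fosb (chr7:19310046-19310195, minus strand): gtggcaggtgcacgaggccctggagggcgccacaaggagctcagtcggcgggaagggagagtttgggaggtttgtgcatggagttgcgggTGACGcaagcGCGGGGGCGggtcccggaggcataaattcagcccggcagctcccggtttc
Jun (chr4:95052223-95052372, minus strand): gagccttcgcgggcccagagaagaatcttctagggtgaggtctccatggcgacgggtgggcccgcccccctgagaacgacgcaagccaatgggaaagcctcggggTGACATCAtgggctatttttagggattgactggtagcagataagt
Junb (chr8:84978749-84978898, minus strand): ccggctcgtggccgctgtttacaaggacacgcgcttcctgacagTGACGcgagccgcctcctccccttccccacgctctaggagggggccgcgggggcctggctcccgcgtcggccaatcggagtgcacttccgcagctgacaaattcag
Maff, second of 3 start sites (chr15:79347370-79347519, plus strand): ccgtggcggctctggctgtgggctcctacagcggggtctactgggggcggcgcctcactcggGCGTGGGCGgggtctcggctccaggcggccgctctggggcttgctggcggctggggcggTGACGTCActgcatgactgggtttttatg
Maff, last of 3 start sites (chr15:79348252-79348401, plus strand): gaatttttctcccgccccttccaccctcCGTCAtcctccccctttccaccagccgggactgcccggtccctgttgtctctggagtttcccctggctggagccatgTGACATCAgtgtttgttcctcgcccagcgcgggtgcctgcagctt

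The matches differed from gene to gene in the 250 bases searched before each start. The Fos promoter held TGACG beginning 129 and 66 bases before the start. The Jun promoter and the promoter of the last Maff start each held TGACATCA beginning 45 bases before the start. This variant was present in 2.93% of all 32851 promoters of that length. The full TGACGTCA, which contains TGACG on both strands, was found at the second Maff start and no other of the 9, against 1.55% of all promoters. TGACG occurred before 5 of the 9 starts, in 4 genes, against 17.8% of all promoters. The Egr site GCGNGGGCG occurred before 3 of the 9 starts (Fosb, Fosl2 and the second Maff start), against 4.70% of all promoters. A kappa B site, the sequence bound by NF-kB proteins, occurred before 4 of the 9 starts (Fos, Fosb, Fosl2 and the last Maff start), against 7.25% of all promoters. The AP-1 site TGANTCA and the CArG box of serum response factor were in none of the 9 windows, against 6.75% and 1.47% of all promoters. Bases further upstream were not searched, nor were Egr1, Fosl1 and Myc, so sites there would not be seen. The Jund window and that of the first Maff start held none of the motifs searched, and the E box CACGTG was found at the second Maff start. A match is a run of letters and was not tested as a binding site.

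In LPS kidneys 9 of the 10 genes rose and none fell (edgeR quasi-likelihood test, Benjamini-Hochberg adjusted over 14219 genes, threshold 0.05). Over all tested genes 25.7% rose, 24.8% fell and 50.5% changed in either direction. For the same 9 genes every LPS library lay above every Control library, which was so for 30.5% of all tested genes, while 60.2% had groups that did not overlap in either direction. None of the 10 genes was lower at an unadjusted p under 0.05 or in DESeq2 or limma. Those at least 4-fold higher were Fos, Fosl1, Jun, Junb, Egr1, Myc and Maff, or 7 of 10 genes against 3.61% of all tested genes. The median log2 fold change of the 10 genes was 2.39, and that of all tested genes was 0.01. Levels are given as CPM, which are counts relative to library size scaled with TMM library factors, and a log2 fold change carries its standard error (SE).

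**Figure D1:**
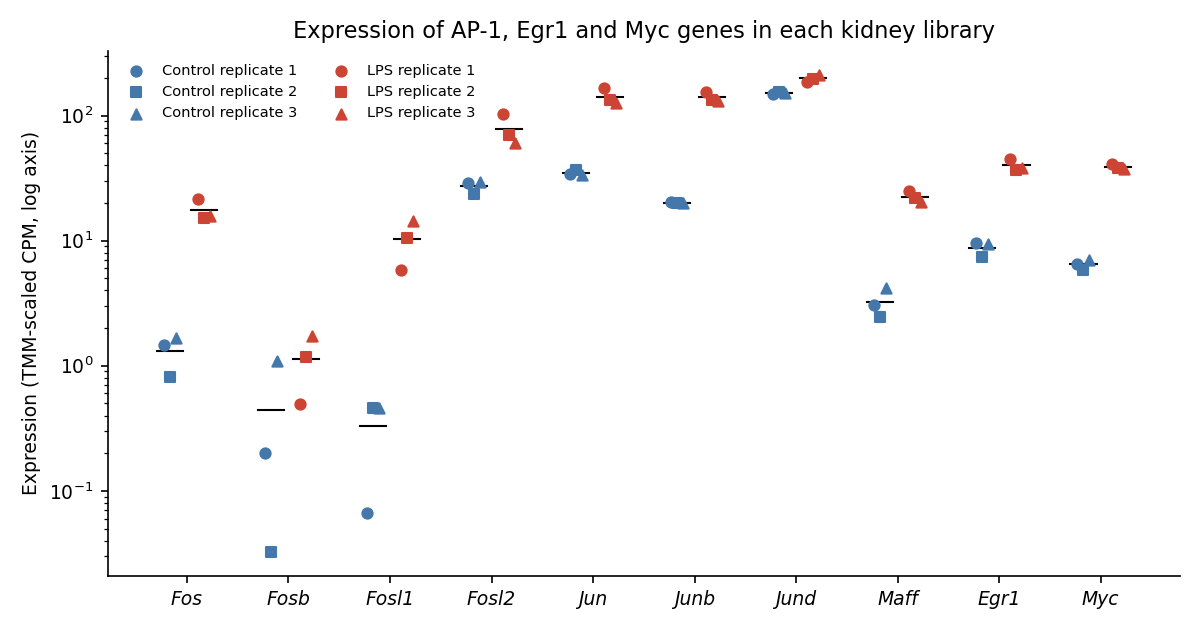
Expression of the 10 genes in TMM-scaled CPM on a log axis, with 1 point per library (blue, Control; red, LPS; marker shape, replicate number) and a black bar at the group mean. The groups overlap only for Fosb, and Jund has the smallest gap between them.

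The libraries held between 29097558 and 33454344 counts, and counts of any 2 replicates of a group differed beyond what sampling gives (chi-square at least 11.1 per degree of freedom). LPS replicate 2 stood apart in carrying 9 seminal vesicle genes at 3.66% of its counts, against 0.00328% to 0.00457% in the other libraries. Of the 10 genes 9 rose also without those genes and without LPS replicate 2. Kidney markers were present in all libraries: the summed level of 10 proximal tubule genes was 46550 to 50010 CPM in Control and 14010 to 15520 CPM in LPS kidneys, and all 10 fell. All 8 tested genes of a 10-gene neutrophil list rose, with a summed level of 78.2 to 119 CPM in LPS and 2.96 to 3.88 CPM in Control kidneys. Among its defining markers Ly6g had only 4 counts over the LPS libraries and 2 over the Control libraries, while S100a9 stood at 35.7 and 1.16 CPM. A list of 10 genes of monocytes and macrophages had 5 that rose and 3 that fell. These marker counts stand against 25.7% of all tested genes that rose and 24.8% that fell. The summed level of the monocyte and macrophage list was 198.9 to 217 CPM in LPS and 130.5 to 208 CPM in Control kidneys. The part of these cells in the levels below was not tested. In bulk tissue, fewer cells of a type and less RNA per cell cannot be told apart.

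Among the Fos proteins, Fos itself stood at 21.7, 15.3 and 15.7 CPM in LPS replicates 1, 2 and 3 and at 1.47, 0.814 and 1.68 CPM in Control replicates 1, 2 and 3. Every LPS library was at least 9.11 times the highest Control library. The means were 17.5 ± 3.57 CPM in LPS and 1.32 ± 0.451 CPM in Control (SD, n = 3 each), and the log2 fold change was 3.73 ± 0.26 (edgeR, adjusted p = 6.09e-06). By fold change Fos ranked 174th from the top of the 14219 tested genes.

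Fosl1 encodes Fra-1, a Fos relative that lacks the transactivation domains of Fos. It stood at 5.81, 10.5 and 14.4 CPM in the LPS libraries and at 0.0669, 0.456 and 0.460 CPM in the Control libraries, from 2, 14 and 14 counts. It was nearly absent from Control kidneys, and its lowest LPS library was 12.6 times its highest Control library. Its log2 fold change of 4.94 ± 0.52 was the largest of the 10 genes in this edgeR fit and ranked 106th of all tested genes (edgeR, adjusted p = 7.00e-05). Seminal vesicle transcripts were found in the Control libraries at 0.0829% to 0.103% of their counts in LPS replicate 2. Whether they came from that library was not tested. The same shares of the LPS counts of Fosl1 would give 2.74 of its 30 Control counts, and for Fos 4.73 of 120.

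Fosl2, which encodes Fra-2, stood at 102, 70.0 and 60.8 CPM in LPS and at 28.7, 23.7 and 29.4 CPM in Control libraries. Per length it had the highest Control level of the Fos family, at 3.87 FPKM (a length-scaled unit). Fosl2 rose by a log2 fold change of 1.51 ± 0.18 (edgeR, adjusted p = 0.000151). Fosb, whose product pairs with Jun proteins like Fos, did not pass the test, with a log2 fold change of 1.35 ± 0.84 (edgeR, adjusted p = 0.215). Its LPS libraries had 16, 39 and 53 counts and its Control libraries 6, 1 and 33, or 0.492, 1.17 and 1.72 CPM against 0.201, 0.0326 and 1.09 CPM. Control replicate 3 lay above LPS replicate 1, so the groups overlapped. Without Control replicate 3 Fosb passed, at 3.24 (edgeR, adjusted p = 0.0146), and over all alternatives its adjusted p ranged up to 0.472.

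Among the Jun proteins, Junb stood at 155, 134 and 131 CPM in LPS and at 20.4, 19.9 and 19.8 CPM in Control libraries. The 3 Control libraries were within 1.03 times of each other and the LPS libraries within 1.18 times. Its means were 140.1 ± 13 and 20.1 ± 0.302 CPM (SD, n = 3 each), with a log2 fold change of 2.80 ± 0.09 (edgeR, adjusted p = 8.99e-08).

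Jun, the founding AP-1 subunit, stood at 167, 133 and 126 CPM in LPS and at 34.1, 36.8 and 33.3 CPM in Control libraries. Its lowest LPS library was 3.43 times its highest Control library, and its log2 fold change was 2.03 ± 0.12 (edgeR, adjusted p = 1.73e-06). Jund, the Jun protein that resting cells express most steadily, stood at 186, 197 and 212 CPM in LPS and at 148, 155 and 150.5 CPM in Control libraries. It rose least of the genes that passed, by 0.40 ± 0.08 (edgeR, adjusted p = 0.00305), and its lowest LPS and highest Control libraries differed 1.20-fold.

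Genes on the opposite strand overlap some of these in the GENCODE vM21 annotation, which may not be the one the authors used, and the strand setting of the counting is not given in the sources used here. Junb overlaps Prdx2 and Fosl1 overlaps Ccdc85b. Both neighbours fell, Prdx2 by a log2 fold change of -0.32 and Ccdc85b by -0.30, with every LPS library below every Control library. Jun and Jund overlap the antisense transcripts Junos and Gm11175, and without strand, reads from these cannot be told apart from reads of Jun and Jund.

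**Figure D2:**
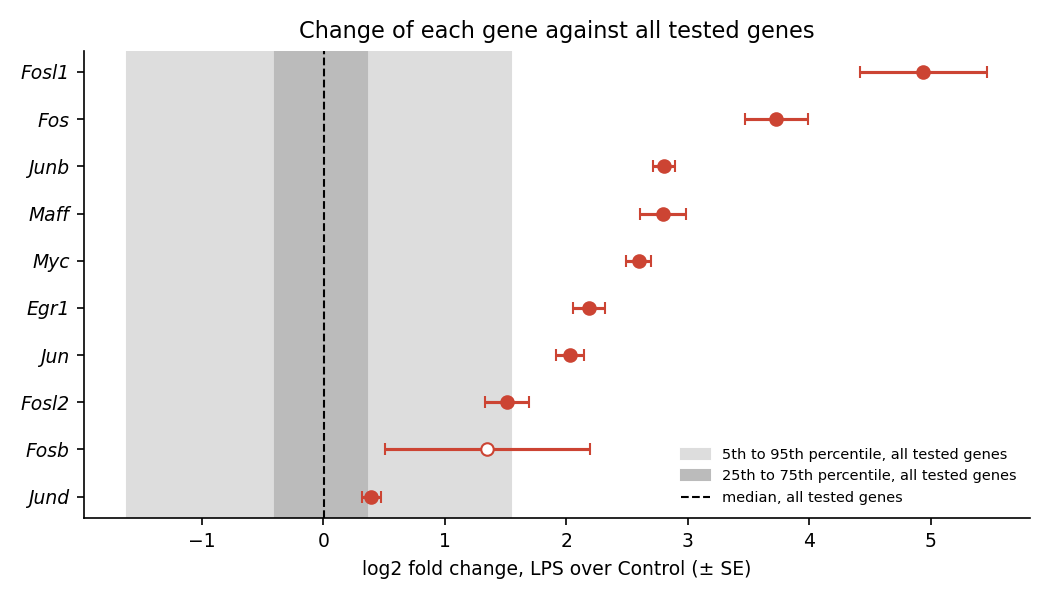
Log2 fold change of each gene in LPS over Control kidneys (points, with SE bars from edgeR; filled, adjusted p under 0.05; open, not passing) over the 25th to 75th and 5th to 95th percentile ranges of all tested genes (grey bands) and their median (dashed). Fosl1, Fos, Junb, Maff, Myc, Egr1 and Jun lie above the 95th percentile of 1.54, and Fosl2, at 1.51, lies just under it.

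The make-up of both families differed between the groups. FPKM, which divides by gene length, allows levels of different genes to be compared. The summed FPKM of the 4 Fos family genes was 28.5, 23.5 and 24.6 in LPS and 4.98, 3.96 and 5.47 in Control libraries, a ratio of means of 5.31. Fosl2 made up 80.9% ± 4.70 of that sum in Control and 42.5% ± 8.32 in LPS kidneys (SD, n = 3 each). Fos held 12.8% ± 2.76 in Control and 32.3% ± 3.54 in LPS kidneys, and Fosl1 held 4.13% ± 3.01 and 24.0% ± 11.0. Fosb held 2.18% ± 2.67 and 1.20% ± 0.689, again Control first, with overlapping groups.

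The summed FPKM of the 3 Jun family genes was 203, 182 and 182 in LPS and 75.2, 75.3 and 73.1 in Control libraries, a ratio of means of 2.54. Jund made up 70.7% ± 0.458 of it in Control and 36.5% ± 3.98 in LPS kidneys. Junb held 14.7% ± 0.469 and 40.1% ± 1.61, and Jun 14.7% ± 0.465 and 23.4% ± 2.36, Control first. Apart from Fosb, the groups did not overlap in any of the 7 shares. Each of these 6 shares gave p = 0.10 in a two-sided exact permutation test (0.117 adjusted over the 7 shares), which is the smallest p that 3 against 3 libraries allow, so no share could pass 0.05, and Fosb gave p = 0.90.

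**Figure D3:**
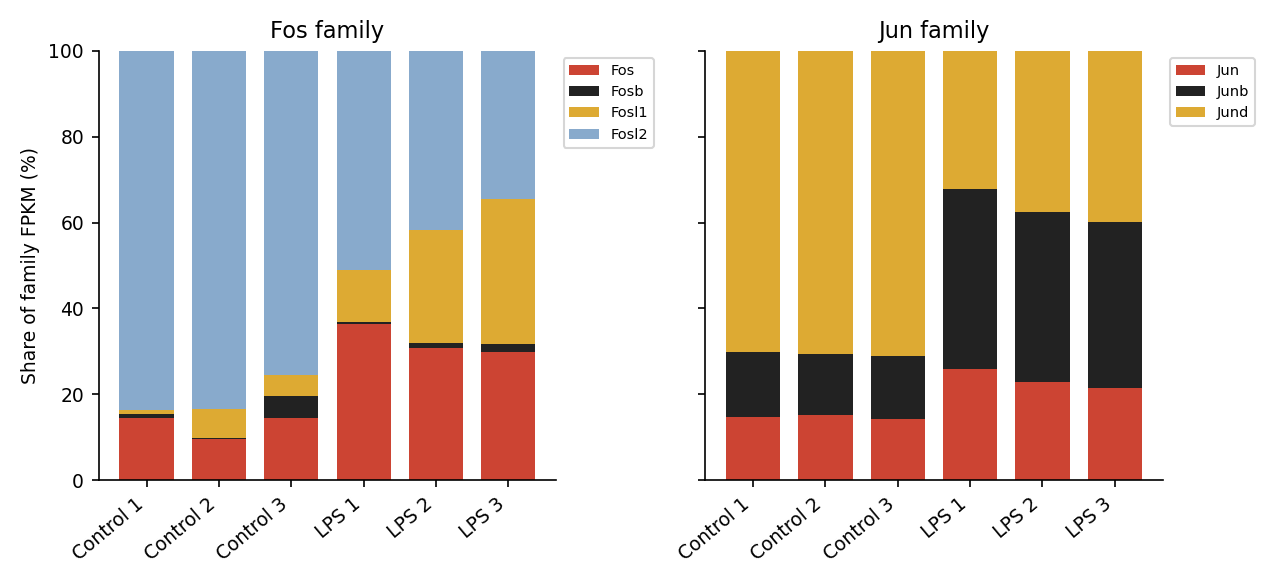
Share of each gene in the summed FPKM of the Fos family (left) and the Jun family (right), in percent, with 1 stacked bar per library. Fosl2 and Jund hold over 70% of every Control bar, and in LPS bars Fosl2 holds 34.5% to 51.1% and Jund 32.2% to 40%.

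Maff stood at 25, 22.1 and 20.4 CPM in LPS and at 3.04, 2.47 and 4.21 CPM in Control libraries. Its groups were 4.86-fold apart at their nearest libraries, and its log2 fold change was 2.80 ± 0.19 (edgeR, adjusted p = 5.51e-06). Per length, the other small MAF genes lay above Maff in Control kidneys, Mafg at 10.1 ± 0.227 FPKM and Mafk at 3.73 ± 0.560 FPKM. In LPS kidneys Mafg stood at 11.0 ± 0.867 FPKM and did not pass (0.13, edgeR adjusted p = 0.189), and Mafk rose by 0.36 ± 0.11 (edgeR, adjusted p = 0.0224).

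Egr1 stood at 45.2, 36.7 and 38.4 CPM in LPS and at 9.60, 7.42 and 9.41 CPM in Control libraries. The groups were 3.83-fold apart at their nearest libraries, and the log2 fold change was 2.19 ± 0.13 (edgeR, adjusted p = 2.23e-06). Of its relatives, Egr2 rose from 0.288 ± 0.244 to 3.75 ± 0.343 CPM, with a change on the log2 scale of 3.69 ± 0.47 (edgeR, adjusted p = 0.000221). Control replicate 1 held most of the Control signal of Egr2, and without it the log2 fold change was 4.63 (edgeR, adjusted p = 4.42e-05). Egr3, with 32 counts over the LPS and 26 over the Control libraries, did not pass (0.21, edgeR adjusted p = 0.743).

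Myc stood at 41.3, 38.1 and 37.6 CPM in LPS and at 6.52, 5.83 and 7 CPM in Control libraries. Its LPS libraries lay within 1.10 times of each other, the narrowest LPS range of the 10 genes, and its log2 fold change was 2.60 ± 0.10 (edgeR, adjusted p = 2.60e-07). Of its relatives, Mycn had a log2 fold change of -0.14 (edgeR, adjusted p = 0.713) and did not pass, and Mycl fell by a log2 fold change of -1.10 ± 0.28 (edgeR, adjusted p = 0.0105), from 7.27 ± 2.92 to 3.39 ± 0.497 CPM.

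Per length, the order of the genes differed between the groups. In Control kidneys Jund was highest at 52.7 ± 0.621 FPKM, followed by Junb (10.9 ± 0.397), Jun (10.9 ± 0.512), Fosl2 (3.87 ± 0.488), Egr1 (2.88 ± 0.434), Myc (2.70 ± 0.263), Maff (0.991 ± 0.266), Fos (0.629 ± 0.218), Fosl1 (0.191 ± 0.131) and Fosb (0.116 ± 0.148). The neighbours Junb and Jun, Egr1 and Myc, Maff and Fos, and Fosl1 and Fosb overlapped in their library values. In LPS kidneys Junb (75.9 ± 7.94 FPKM) and Jund (68.8 ± 3.74) overlapped at the top, above Jun (44.4 ± 7.39) and Myc (16.2 ± 1.03). Egr1 (13 ± 1.60), Fosl2 (10.9 ± 3.19), Fos (8.30 ± 1.79), Maff (6.84 ± 0.785) and Fosl1 (5.96 ± 2.44) each overlapped the next in that order, and Fosb (0.296 ± 0.159) lay below all others. 

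The 3 LPS libraries did not rank alike for all genes. LPS replicate 1 was the highest of the 3 for 7 genes (Fos, Fosl2, Jun, Junb, Egr1, Myc and Maff) and the lowest for Fosb, Fosl1 and Jund. For comparison, it was the highest for 28.8% of the 3658 genes that rose. LPS replicate 3 was the highest for Fosb, Fosl1 and Jund and for 45.4% of the genes that rose. Fosl2 ranged from 78.3% to 132% of its LPS mean and Fosl1 from 56.8% to 140%, in opposite order. Fosl1 held 12.1% of Fos family FPKM in LPS replicate 1, 26.2% in replicate 2 and 33.8% in replicate 3. This pattern was noticed in the data and no test was made of it.

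**Figure D4:**
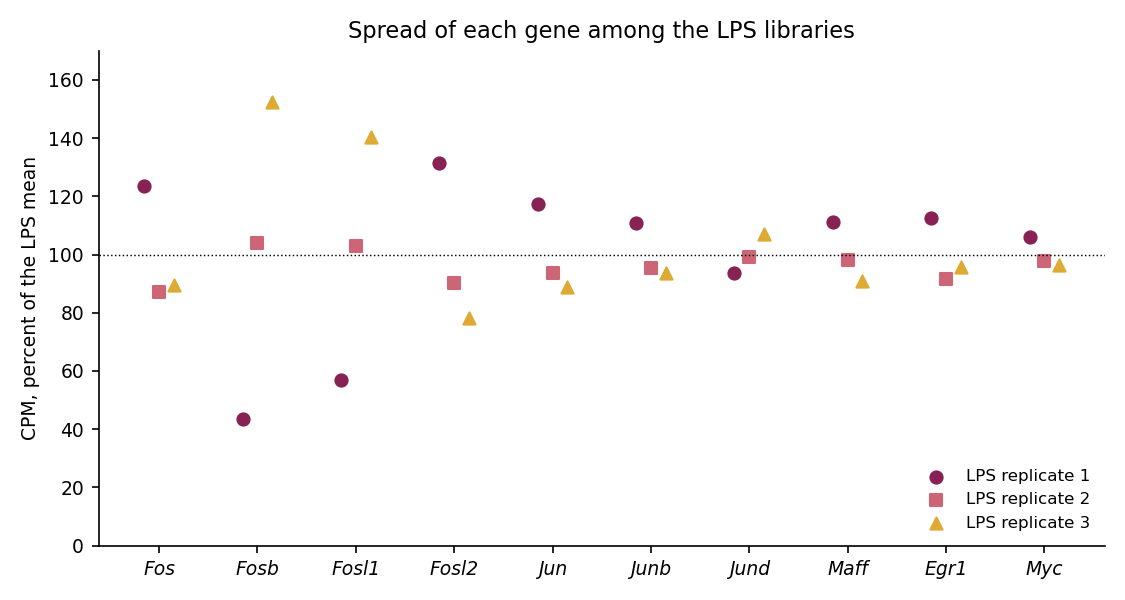
CPM of each gene in the 3 LPS libraries as a percent of its LPS mean (dotted line, 100). LPS replicate 1 is highest for 7 genes and lowest for Fosb, Fosl1 and Jund, with Fosb at 43.6% and Fosl1 at 56.8% of the mean.

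Genes of the ATF, BATF, CREB and JDP groups, listed here as AP-1 partners, mostly rose. Pairing of each with Fos or Jun proteins was not tested. Of 13 tested genes 10 rose and none fell in edgeR (median log2 fold change 0.78), against 25.7% and 24.8% of all tested genes. None was lower at an unadjusted p under 0.05 or in DESeq2 or limma. Batf, a Jun partner of immune cells, rose most, from 0.561 ± 0.123 to 3.9 ± 0.748 CPM (2.79 ± 0.30; edgeR, adjusted p = 8.39e-05). Atf3, a stress-induced repressor, rose from 2.19 ± 0.909 to 13.9 ± 1.36 CPM (2.66 ± 0.26; edgeR, adjusted p = 4.07e-05). Creb5 (1.66), Atf5 (1.60), Crem (0.93), Atf4 (0.78), Atf6 (0.59) and Atf7 (0.36) also rose, all on the log2 scale. Atf2 (-0.12) and Creb1 (-0.04) did not pass.

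The calls of the remaining genes of that list changed when libraries were left out, while the folds kept their direction. Batf2 rose by 1.20 (edgeR, adjusted p = 0.0218). Its log2 fold change was 0.90 without LPS replicate 1, 1.22 without Control replicate 2 and 1.06 without Control replicate 3 (edgeR, adjusted p = 0.0814, 0.0627 and 0.0785). Jdp2, a repressor that binds Jun proteins, rose by 0.54 with overlapping groups (edgeR, adjusted p = 0.0366). Without LPS replicate 1, LPS replicate 2, Control replicate 2 or Control replicate 3 it was 0.43, 0.48, 0.47 and 0.52 (edgeR, adjusted p = 0.107, 0.1, 0.120 and 0.0953). Batf3 did not pass (-0.98, edgeR adjusted p = 0.101) and passed without Control replicate 3 (-1.29, adjusted p = 0.0426).

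Of 21 tested other immediate early genes 15 rose and none fell in edgeR (median log2 fold change 1.19), against 25.7% and 24.8% of all tested genes. None of the 21 was lower at an unadjusted p under 0.05 or in DESeq2 or limma. Egr2 and Atf3, given above, are among them. Nr4a1, an orphan nuclear receptor, rose from 3.88 ± 1.24 to 16.5 ± 1.72 CPM (2.09 ± 0.22; edgeR, adjusted p = 7.55e-05). Klf6, a zinc finger factor, rose by 1.78 ± 0.13, Zfp36, which destabilises AU-rich mRNAs, by 1.60 ± 0.17, Ccn1, a matrix protein, by 1.36 ± 0.22, and Btg2, an antiproliferative factor, by 1.30 ± 0.09. Klf10 (1.32), Ier3 (1.19), Klf4 (1.10), Ier5 (1.01), Ier2 (0.98) and Ier5l (0.84) rose too. Dusp1, a phosphatase of MAP kinases, averaged 36.8 ± 6.41 CPM in the Control and 43.3 ± 4.19 CPM in the LPS group and did not pass (0.24, edgeR adjusted p = 0.162), nor did Ccn2 (0.15) and Nr4a2 (-0.25).

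For some of these early genes the call or the fold changed when a library was left out. Gadd45b stood at 33.3, 12.3 and 13.7 CPM in the LPS libraries and 4.98 to 6.22 CPM in Control, with a log2 fold change of 1.78 that was 1.17 without LPS replicate 1 (edgeR, adjusted p = 0.00296 and 0.000523). Nr4a3 did not pass (1.94, edgeR adjusted p = 0.0559), with 2.80, 3.10 and 0.486 CPM in LPS libraries, and passed without LPS replicate 3 (2.41, adjusted p = 0.0118) or Control replicate 1 (2.61, adjusted p = 0.0398). Arc did not pass (0.60, edgeR adjusted p = 0.0669) and passed without LPS replicate 3 (0.80, adjusted p = 0.0151). Per1, a clock gene that also responds acutely, rose by 0.72 (edgeR, adjusted p = 0.0261). It was 0.66, 0.71, 0.52 and 0.61 without LPS replicate 2, LPS replicate 3, Control replicate 1 or Control replicate 2, and passed in none of these 4 fits (edgeR, adjusted p = 0.0616, 0.0629, 0.0711 and 0.0992).

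Upstream factors had smaller medians, and their counts stand against 25.7% of all tested genes that rose and 24.8% that fell. Of 6 serum response factor and cofactor genes 2 rose and none fell in edgeR (median 0.03; none lower at an unadjusted p under 0.05 or in DESeq2 or limma, where 1 rose), with Mrtfb at 0.69 ± 0.09, while Srf (-0.01), Elk3 (-0.20) and Elk4 (0.06) did not pass. Mrtfa passed narrowly (0.27, edgeR adjusted p = 0.0496) and lost its call at folds of like size. Without LPS replicate 1 or 2 or Control replicate 2 or 3 it was 0.28, 0.21, 0.22 and 0.25 (edgeR, adjusted p = 0.0617, 0.182, 0.157 and 0.123). Of 23 MAP kinase cascade genes 7 rose and 3 fell (median 0.04). Map3k1 rose from 45.9 ± 5.25 to 158.9 ± 12.4 CPM, on the log2 scale by 1.79 ± 0.10 (edgeR), while Map2k2 had a log2 fold change of 0.04 and did not pass. Mapk14, which encodes p38 alpha, fell by a log2 fold change of -0.26 (edgeR, adjusted p = 0.0259). Without LPS replicate 2 or 3 or Control replicate 2 or 3 its log2 fold change was -0.23, -0.25, -0.26 and -0.22 (edgeR, adjusted p = 0.0802, 0.0542, 0.0769 and 0.0953).

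**Figure D5:**
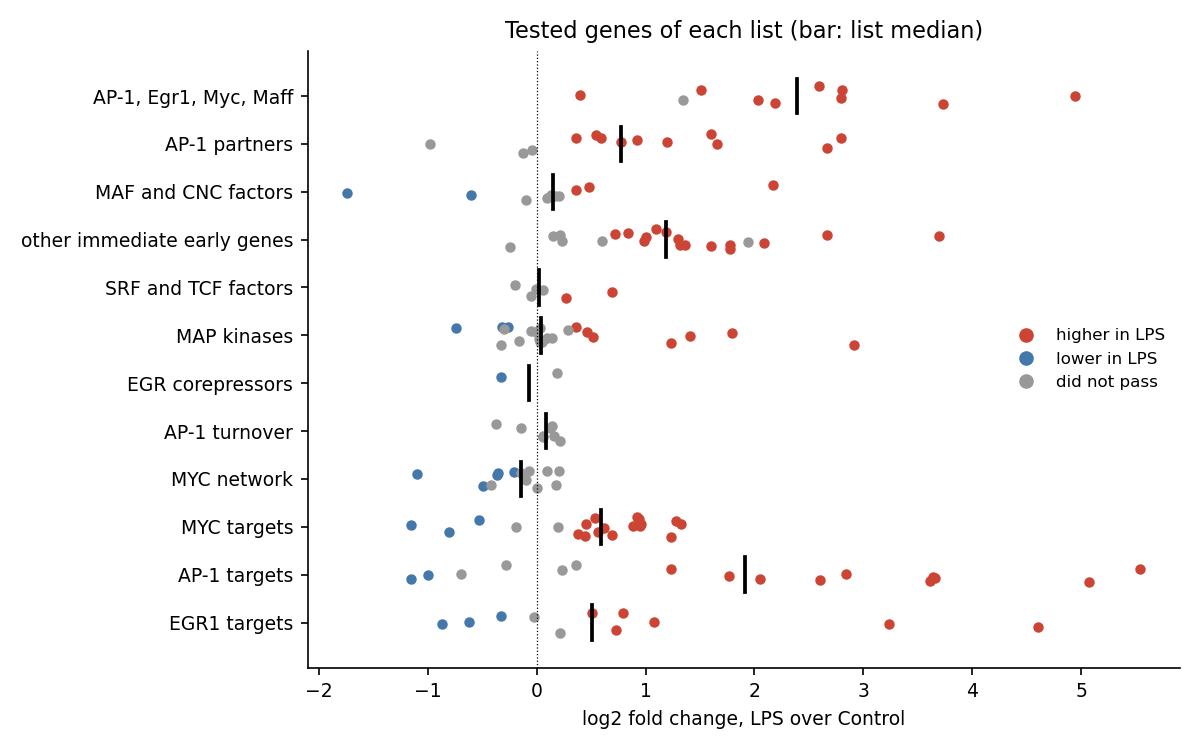
Log2 fold change of every tested gene in each list (points; red, higher; blue, lower; grey, not passing at an adjusted p of 0.05 in edgeR), with a black bar at the list median. The 10 genes described here have the highest median, 2.39, followed by textbook AP-1 targets at 1.91.

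Partners and regulators of Myc, Egr1 and Maff are described next. Of 13 Myc network genes none rose and 5 fell in edgeR (median -0.14), against 25.7% and 24.8% of all tested genes. None of the 13 was higher at an unadjusted p under 0.05 or in DESeq2 or limma. Max, the obligate Myc partner, averaged 48.4 ± 0.866 CPM in the Control and 54.6 ± 6.00 CPM in the LPS group (0.18, edgeR adjusted p = 0.128), and passed without LPS replicate 1 (0.26, adjusted p = 0.0160). Mxi1, a Max partner that opposes Myc, fell by a log2 fold change of -0.36 ± 0.09 (edgeR, adjusted p = 0.0104), and Mlxipl (0.10) and Mga (-0.07) did not pass. Mlx fell, with a log2 fold change of -0.35 (edgeR, adjusted p = 0.0201) that was -0.33 without Control replicate 2 (adjusted p = 0.0673).

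Of the EGR corepressors, Nab2 fell by a log2 fold change of -0.32 (edgeR, adjusted p = 0.0382). It was -0.22 without LPS replicate 1 and -0.31, -0.32 and -0.35 without Control replicate 1, 2 or 3 (edgeR, adjusted p = 0.0886, 0.0872, 0.0982 and 0.0591). Nab1 did not pass (0.19, adjusted p = 0.0647) and passed without LPS replicate 1 (0.25, adjusted p = 0.0169). Of 10 tested MAF and CNC genes 3 rose and 2 fell (median 0.15), against 25.7% and 24.8% of all tested genes. Nfe2l2, which encodes NRF2, rose by 0.48 ± 0.08, the large MAF gene Maf fell by a log2 fold change of -0.60 ± 0.15, and Nfe2l1 (0.10) did not pass. Bach1 did not pass (0.21, adjusted p = 0.146) and passed without Control replicate 3 (0.31, adjusted p = 0.0462).

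Of 8 genes for turnover of Jun, Fos or Myc proteins none passed in either direction in edgeR (median 0.09), against 50.5% of all tested genes. At an unadjusted threshold of 0.05, 1 of the 8, Itch, was higher (0.0298 in edgeR). That list held Fbxw7, a ubiquitin ligase subunit for Myc and Jun, at 0.16, Cop1 at -0.15 and Usp36 at 0.06. Itch, a Junb ligase, averaged 128 ± 9.09 CPM in the Control and 148.9 ± 6.01 CPM in the LPS group (0.22, edgeR adjusted p = 0.0574). It passed without Control replicate 3 (0.28, adjusted p = 0.0401), and DESeq2 and limma-voom gave it adjusted p-values of 0.0394 and 0.0398. On log2(FPKM + 1) and on log2(FPKM + 0.1), limma also called 1 of the 8 genes higher, so among these tools only edgeR called none. None of the 8 was called lower by any of them.

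Textbook targets moved in both directions. Of 16 tested AP-1 targets 10 rose and 2 fell (median 1.91), against 25.7% and 24.8% of all tested genes. Hmox1, the inducible haem oxygenase, rose from 31.6 ± 3.19 to 387 ± 69.9 CPM, on the log2 scale by 3.62 ± 0.15, and Mmp14, a membrane metalloprotease, rose by 1.23 ± 0.18. Ccnd1, which encodes cyclin D1, fell by a log2 fold change of -1.0 ± 0.15 and Plau, which encodes urokinase, by -1.15 ± 0.17. Vim did not pass (0.23, edgeR adjusted p = 0.0567) and passed without LPS replicate 2 or Control replicate 1 (adjusted p = 0.0366 and 0.0488).

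Of 20 Myc targets 15 rose and 3 fell (median 0.59), against 25.7% and 24.8% of all tested genes. Tfrc, the transferrin receptor, rose by 1.23 ± 0.18 and Ncl, which encodes nucleolin, by 0.57 ± 0.11. Odc1, ornithine decarboxylase and a classic Myc target, stood at 903.7 ± 20.6 CPM in Control and fell to 407.5 ± 34 CPM, with a log2 fold change of -1.15 ± 0.08 (edgeR, adjusted p = 7.44e-06), and the chaperonin gene Hspd1 fell by -0.53 ± 0.09. Ldha did not pass (0.20, edgeR adjusted p = 0.0566). Among 11 tested Egr1 targets 6 rose and 3 fell (median 0.51), with Icam1 at 3.23 ± 0.15, Thbs1 at -0.87 ± 0.11 and Sod1 at -0.62 ± 0.09. Ptges did not pass (0.22, adjusted p = 0.157) and passed without LPS replicate 3 (0.32, adjusted p = 0.0410). These genes respond to many other factors, and their link to AP-1, Egr1 or Myc in these kidneys was not tested.

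Profiles most like those of Fos, Egr1 and Myc were sought among 13068 genes with a mean of at least 1 CPM. The measure was the mean absolute difference over the 6 libraries of log2 CPM after centring each gene on its own mean, so it follows the group difference and the spread together. For Egr1 the nearest were Birc3 (0.09), Cebpb (0.10) and Acsl4 (0.11). For Myc they were H2-D1 (0.11), Slc16a1 (0.11) and Junb (0.12). For Fos they were Cp, Chrdl2 and Itgb3 (0.16, 0.16 and 0.21), so no gene lay as near to Fos as others did to Egr1 or Myc. Fos had fewer counts in Control replicates 1, 2 and 3 (44, 25 and 51) than Egr1 (287, 228 and 286) or Myc (195, 179 and 213). The part of counting error in these distances was not tested.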

How the data were processed

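Bulk RNA-seq of 6 mouse kidneys (3 LPS, 3 Control) was used, with groups taken from the sample titles. The authors deposited, for every library, a raw count of each gene symbol and its FPKM. Per the submitters' processing notes, the tools included HTSeq, HISAT2, SAMtools, R 3.2.0 and DESeq2 (roles unstated). Build, annotation and strand setting: not given in the sources used here. The deposited FPKM equalled count over gene length and library total in 106077 of 106080 values (relative tolerance 1e-06).

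Counts were filtered with filterByExpr (minimum count 10, minimum total 15), which removed 3461 of 17680 genes, scaled by TMM and tested two-sided with the quasi-likelihood test of edgeR 4.0.16 in R 4.3.3. P-values were Benjamini-Hochberg adjusted over all 14219 genes. The SE is the log2 fold change over the square root of F. The script was tested on simulated data. The series' design text gives 3 mice per group, so replicates are mice.

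Alternatives were RLE factors, library sizes, DESeq2 1.42.0, no filter, a floor of 1 on mean CPM, limma 3.58.1 (voom, or log2(FPKM + 1) and log2(FPKM + 0.1)), a replicate block and leaving out each library. A fit without 9 seminal vesicle genes was chosen after seeing the data. The genes and lists were chosen with earlier results of these data known. The naming rule took all 10 genes, every tested AP-1 partner and other immediate early gene, up to 5 genes with the highest mean CPM of each other list, and the 3 nearest profiles of Fos, Egr1 and Myc. Some genes under this rule are not reported here by name and stay in the fits and list counts. Mycn, Mycl, Mafk, the overlapping genes and the marker genes fall outside it and were named after their values were seen.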

Additional observations from a re-analysis of the deposited data

How the results depend on the processing

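All 10 genes kept their direction under each alternative that could be fitted, and 9 of them kept their call in all 16. Fosb passed in 1 of its 15 (without Control replicate 3), and a mean CPM of at least 1 removed it from the test. The count of these genes that rose was 9 to 10 over the fits leaving out 1 library. The fits gave between 3077 and 3666 higher and between 3010 and 3490 lower genes when 1 library was left out. Replicate numbers did not pair the mice: deviations of same-numbered libraries correlated at 0.05, -0.05 and 0.00, and with the replicate block 3414 genes rose and 3331 fell, 9 of the 10 among the former. The difference in the share of Fosb in the Fos family, -0.98 percentage points, ranged from -1.96 to 0.55 without single libraries. Genes that did not pass changed sign when libraries were left out: Creb1 (-0.10 to 0.0546), Egr3 (-0.14 to 0.51), Nr4a2 (-0.55 to 0.11), Srf (-0.089 to 0.0655), Elk4 (-0.23 to 0.27), Usp36 (-0.0176 to 0.10) and Mlxipl (-0.10 to 0.24). The median of the serum response factor list was -0.00153 on log2(FPKM + 1), -0.00641 on log2(FPKM + 0.1) and -0.0262 to 0.15 without single libraries, and that of the EGR corepressors -0.11 to 0.0122. The cause was not tested. The list medians of the 10 genes and of AP-1 targets were 1.95 and 0.88 on log2(FPKM + 1), a scale that shrinks low genes. By median FPKM, 18 of 20 ranks were as by the mean. Control counts over 3 libraries were 40 for Fosb and 30 for Fosl1, where counting error is a larger part of the level than for the other genes. The log2 fold change of Fosl1 ranged from 2.49 to 5.26 over the alternatives and that of Junb from 2.68 to 2.85. Fosl1 was thus not the largest of the 10 genes under every alternative.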
